A study of Mus musculus with 10 samples.

Results

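The genes described here are 47 markers of leukocytes, the white blood cells: 19 made by nearly all leukocytes, 19 of lymphocytes and 9 of myeloid cells. They were chosen by symbol, with earlier results of these data known, from the 49164 genes with values in the deposited table. All 47 were found. Polyadenylated RNA had been sequenced from epithelium peeled off the gingiva, the gum around the teeth, of mice. The 10 libraries were 5 of palatal gingival epithelium, the side facing the palate, and 5 of buccal gingival epithelium, the side facing the cheek. Both sides came from gingiva soaked in Dispase, a protease that frees epithelium from connective tissue, before the epithelium was lifted off with forceps. The labels give no genotype, strain, age, sex or treatment for either side, and the series' design text speaks of pooled mice, SPF (specific-pathogen-free) and GF (germ-free), without tying them to these libraries. Whether these libraries are such pools is not known. Nothing in the labels ties the samples to different mice. The p-values therefore reflect sample-to-sample spread, part or all of which may be technical.

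Leukocytes are rare residents of stratified epithelium. In mucosa and skin they are chiefly Langerhans cells, which sample antigen, and intraepithelial T cells, which survey keratinocytes. All leukocytes carry CD45, the phosphatase encoded by Ptprc, and share a machinery of actin remodelling, selectin binding and beta 2 integrin adhesion. Lymphocytes add antigen receptors with their CD3 chains and cytokine receptors that share the common gamma chain, and myeloid cells add Fc receptors, phagocyte oxidase and the transcription factor PU.1.

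Total counts were 25868777 to 35583168 per palatal library and 29317011 to 37234192 per buccal library. Keratinocyte markers filled both sides: the summed level of 20 of them was 145812 to 159049 CPM (counts divided by library size, scaled by the trimmed mean of M-values) in palatal and 151025 to 170146 CPM in buccal libraries. The 47 leukocyte genes together reached 78.1 to 92.7 CPM in palatal and 153 to 238 CPM in buccal libraries. They held 0.00857% of palatal and 0.0186% of buccal counts on average. The groups did not overlap in this sum. Much of the palatal sum was that of Thy1, Arhgdib and Cd68, which averaged 21.7, 20.4 and 7.43 CPM in palatal libraries. In buccal libraries they averaged 16.1, 33.4 and 11.3 CPM, so the sum does not show the typical member.

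Palatal epithelium carried less leukocyte transcript than buccal epithelium. In a fit with no filter on low counts, which holds every member, 41 of the 47 were lower in palatal libraries and 1, Thy1, was higher, in edgeR's quasi-likelihood test at a false discovery rate of 0.05 over all genes. In that fit 9.77% of the 29221 genes with any count were lower and 9.66% were higher. Because the members were chosen with earlier results of these data known, the shares are background and not an independent test. The median log2 fold change, palatal minus buccal, was -1.63 over the 47 members and 0.05 over all genes of that fit. By class the median was -1.73 for the pan-leukocyte, -1.51 for the lymphoid and -1.58 for the myeloid members. After the usual count filter, 41 members were tested, of which 39 were lower and 1 was higher, where 20.3% of the 14062 genes tested were lower and 18.7% higher. All 5 palatal libraries lay below all 5 buccal libraries for 39 of the 47 members. This separation was found for 7.7% of genes with any count and for 14.7% of genes that passed the count filter. Fewer cells of a type and less RNA per cell cannot be told apart in bulk samples. A count of 10 at the median depth, which 5 libraries must reach to keep a gene, was met in every buccal library by 41 members and in every palatal library by 26. The filtered counts thus favour genes high on the buccal side. Fold changes below are from the filtered fit unless said otherwise.

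**Figure D1:**
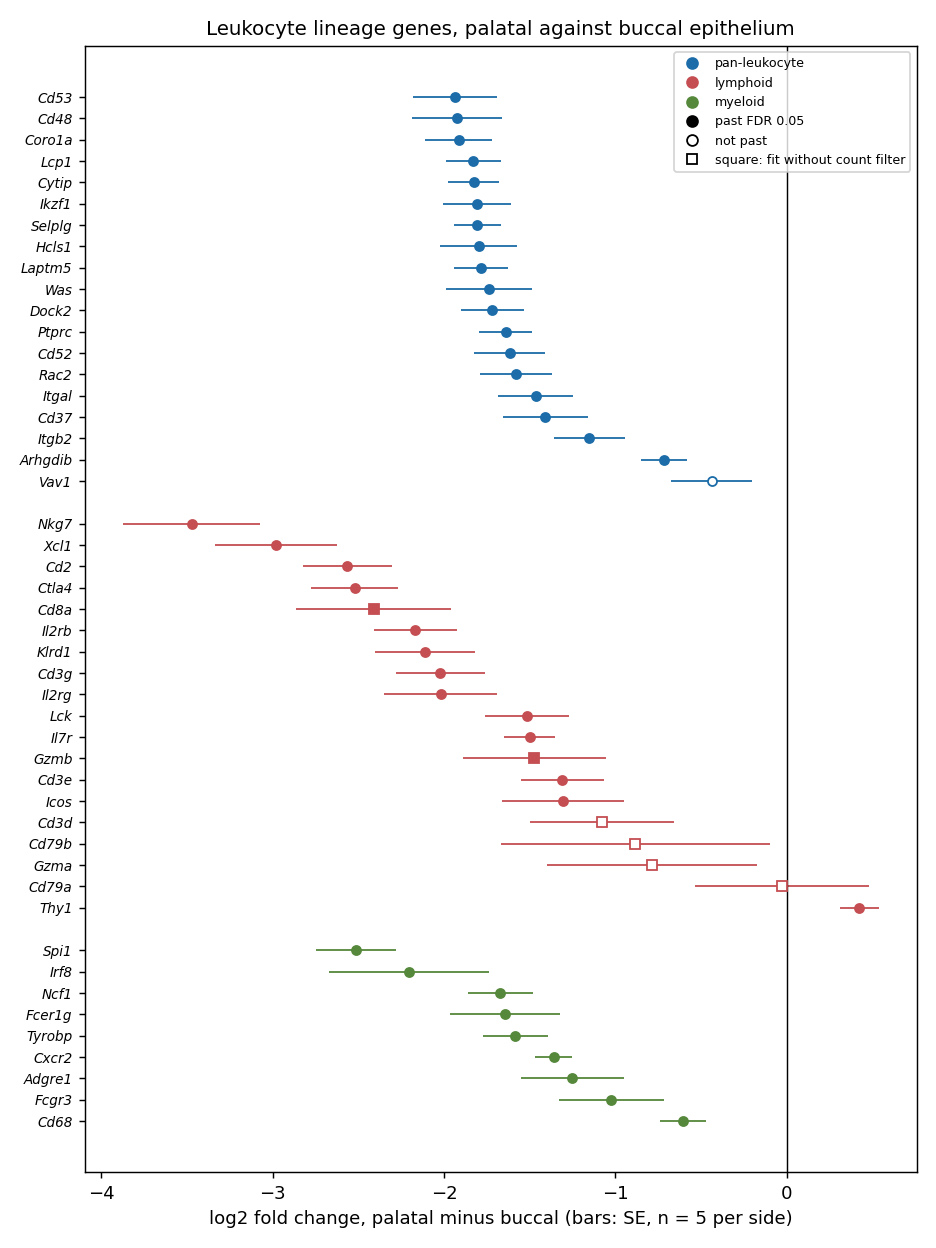
Log2 fold change, palatal minus buccal, of all 47 leukocyte genes (x axis; bars, SE; n = 5 per side), grouped by class. Circles are the 41 genes that passed the count filter and squares the 6 that did not, from the unfiltered fit; open symbols missed a false discovery rate of 0.05. Every symbol but that of Thy1 lies left of 0, and those of Vav1, Cd3d, Cd79b, Gzma and Cd79a are open.

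Of the 19 pan-leukocyte genes, 18 were lower in palatal libraries and Vav1 did not pass. Ptprc, the CD45 gene, had 2.68, 3.25, 2.34, 2.99 and 2.67 CPM in palatal libraries 1 to 5, against 7.23, 12.4, 8.24, 8.25 and 7.26 CPM in buccal libraries 1 to 5. Buccal library 2 stood above the rest of its side, and the sides did not overlap. The fold change was -1.64 ± 0.15 on the log2 scale (SE; edgeR adjusted p = 1.11e-06), and -1.48 to -1.70 with any 1 library left out. Lcp1, which encodes the actin bundler L-plastin, had 5.46, 6.70, 4.51, 5.02 and 5.84 CPM in palatal libraries against 19.2, 28.7, 16.6, 16.8 and 16.4 CPM in buccal libraries, with buccal library 2 again highest. Its fold change was -1.83 ± 0.16 (edgeR adjusted p = 8.46e-07).

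Genes of leukocyte trafficking and adhesion fell too. Selplg, which encodes the selectin ligand PSGL-1, had 1.22, 1.91, 1.52, 1.63 and 1.66 CPM in palatal libraries against 6.46, 5.94, 5.57, 5.01 and 4.84 CPM in buccal libraries (log2 fold change -1.80 ± 0.14, edgeR adjusted p = 1.02e-07). Among buccal libraries, number 1 led for this gene. Itgb2, the beta 2 integrin chain, averaged 1.90 ± 0.375 CPM in palatal and 4.22 ± 1.41 CPM in buccal libraries (SD, n = 5 each), and Itgal, its LFA-1 partner chain, averaged 0.803 ± 0.202 CPM in palatal and 2.24 ± 0.588 CPM in buccal libraries. Itgb2 fell by 1.15 ± 0.21 and Itgal by 1.46 ± 0.22 log2 units. Cytip, an adaptor that curbs integrin activation through cytohesin, had 1.06, 0.893, 1.13, 1.03 and 1.33 CPM in palatal libraries, against 4.37, 4.5, 3.73, 3.49 and 3.27 CPM in buccal libraries. The lowest buccal value of Cytip was over the highest palatal one, and its fold change was -1.83 ± 0.15 (edgeR adjusted p = 2.62e-07).

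Cytoskeletal and signalling genes of the class repeated the picture. Laptm5, a lysosomal membrane protein gene, had 2.37 to 3.28 CPM in palatal and 7.31 to 12.6 CPM in buccal libraries (-1.78 ± 0.16). Coro1a, the coronin of leukocyte actin, had 0.757 to 1.66 CPM in palatal and 3.22 to 5.28 CPM in buccal libraries (-1.91 ± 0.19). The Rac exchange factor Dock2 fell by 1.72 ± 0.18, the small GTPase gene Rac2 by 1.58 ± 0.21 and Was, an activator of branched actin, by 1.73 ± 0.25 log2 units. Ikzf1, which encodes the lymphoid transcription factor Ikaros, fell by 1.81 ± 0.20 and Hcls1, a cortactin homologue, by 1.80 ± 0.23. The surface proteins Cd53, Cd48, Cd52 and Cd37 fell by 1.93 ± 0.25, 1.92 ± 0.26, 1.62 ± 0.20 and 1.41 ± 0.25. Edge cases were Arhgdib and Vav1. Arhgdib, a GDP dissociation inhibitor of small GTPases, had 20.9, 16, 18.3, 24.9 and 21.6 CPM in palatal libraries against 32.3, 42.7, 33.6, 33.4 and 25.3 CPM in buccal libraries (-0.72 ± 0.13, edgeR adjusted p = 6.97e-04). Vav1, a guanine nucleotide exchange factor of blood cells, had 1.16, 1.72, 1.16, 1.07 and 0.938 CPM in palatal and 1.54, 2.59, 1.09, 1.69 and 1.33 CPM in buccal libraries (-0.44 ± 0.24, edgeR adjusted p = 0.163). The sides overlapped for Vav1 and for no other pan-leukocyte member.

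Promoters were read because so many members moved together. RefSeq windows (GRCm38.p6, 250 bases before to 50 after the start) were found for 33 members and 27025 genes in all. The ETS-family letters AGGAAGT, searched on both strands, were in the windows of 14 of the 33 members (42.4%) and of 10.7% of all genes. The longer PU.1-type letters GAGGAAGT, which contain them, were in 3 (9.09%, against 3.69% of all genes), and GAGGAAG in 8 (24.2%, against 15.4%). ACAGGAAG, an ETS variant overlapping the first, was in 9 (27.3%, against 4.06%), and the RUNX letters TGTGGTT in 7 (21.2%, against 6.09%). The Ikaros letters TGGGAA were in 9 (27.3%, against 28.3%), and a consensus motif of the interferon regulatory factors in 0 of 33 (against 0.226%). These are matches to letters, not bound sites. The windows below, each the 250 bases before the start, are shown 5′ to 3′ for 2 members that fell and for Vav1, which did not pass; capitals mark the ETS letters, the PU.1 letters around them and the RUNX letters, on either strand.
Was (chrX:8090492-8090741, minus strand): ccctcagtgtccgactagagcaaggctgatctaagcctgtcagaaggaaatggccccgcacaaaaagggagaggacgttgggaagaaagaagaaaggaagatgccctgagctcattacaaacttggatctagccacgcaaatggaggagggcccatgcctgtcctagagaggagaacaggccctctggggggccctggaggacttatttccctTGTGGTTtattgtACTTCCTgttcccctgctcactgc
Cd37 (chr7:45238840-45239089, minus strand): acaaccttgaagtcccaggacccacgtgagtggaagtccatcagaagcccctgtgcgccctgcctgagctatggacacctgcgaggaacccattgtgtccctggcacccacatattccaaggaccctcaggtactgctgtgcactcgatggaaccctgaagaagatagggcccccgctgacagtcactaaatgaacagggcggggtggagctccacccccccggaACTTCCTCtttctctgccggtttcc
Vav1 (chr17:57278850-57279099, plus strand): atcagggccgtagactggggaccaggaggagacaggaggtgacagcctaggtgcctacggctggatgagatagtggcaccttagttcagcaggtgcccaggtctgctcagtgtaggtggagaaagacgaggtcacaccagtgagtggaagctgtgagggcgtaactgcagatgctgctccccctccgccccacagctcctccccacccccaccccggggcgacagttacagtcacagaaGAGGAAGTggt
In Was the ETS match, on the opposite strand, begins 24 bases before the start and the RUNX match 37 bases before it. Cd37 and Vav1 both hold the PU.1 letters close to the start, beginning 25 and 11 bases before it, while their fold changes were -1.41 ± 0.25 and -0.44 ± 0.24.

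Of the 19 lymphoid genes, 14 were lower in the unfiltered fit, 1 was higher and 4 did not pass; 13 passed the count filter. Nkg7 and Xcl1, made by cytotoxic lymphocytes, had the largest fold changes of the 47. Nkg7, a cytotoxic granule protein gene, had 0.0993, 0.128, 0.0282, 0 and 0.0361 CPM in palatal libraries against 0.611, 0.624, 0.708, 0.932 and 0.665 CPM in buccal libraries. These palatal values are 0 to 4 counts per library, so the palatal level is near the limit of detection. The log2 fold change was -3.47 ± 0.40 (edgeR adjusted p = 7.84e-06). Xcl1, which encodes lymphotactin, a chemokine that draws cross-presenting dendritic cells, had 0.165, 0.191, 0.113, 0.358 and 0.252 CPM in palatal libraries against 0.836, 2.69, 1.61, 1.93 and 1.33 CPM in buccal libraries (-2.98 ± 0.35, edgeR adjusted p = 1.05e-05). Buccal library 1 was the lowest of its side and still lay above every palatal library. The palatal values of Xcl1 are 4 to 9 counts per library. The Xcl1 window, shown because this member had the largest fall among those whose window held these letters, holds ETS letters that begin 58 bases before the start and RUNX letters on the opposite strand that begin 228 bases before it.
Xcl1 (chr1:164935523-164935772, minus strand): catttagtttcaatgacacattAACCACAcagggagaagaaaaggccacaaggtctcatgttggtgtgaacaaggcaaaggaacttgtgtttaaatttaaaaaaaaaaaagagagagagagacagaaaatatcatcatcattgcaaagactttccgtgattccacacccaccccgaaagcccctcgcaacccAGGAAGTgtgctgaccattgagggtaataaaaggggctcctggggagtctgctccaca
Klrd1, which encodes the CD94 chain of NK receptors, fell by 2.11 ± 0.29. Gzmb and Gzma, the granzyme genes among the members, and Cd8a, the CD8 alpha chain, were under the count filter. In the unfiltered fit Cd8a (-2.41 ± 0.45, edgeR adjusted p = 1.84e-05) and Gzmb (-1.47 ± 0.42, edgeR adjusted p = 0.00583) passed, and Gzma (-0.79 ± 0.61, edgeR adjusted p = 0.416) did not. Gzma had 0, 10, 2, 1 and 1 counts in palatal libraries against 4, 11, 4, 2 and 5 counts in buccal libraries, with library 2 highest on each side. Outside the members and the rule for naming genes, Gzmc fell by 2.86 ± 0.29 (edgeR adjusted p = 2.16e-06). Gzmm did not pass (-0.44 ± 0.35, edgeR adjusted p = 0.345), and Gzmd, Gzme, Gzmf and Gzmk had few or no counts. These were picked after their values were seen. Granzyme genes resemble each other, so the division of reads among them is uncertain.

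T cell receptor and co-receptor genes fell as well. Cd3e had 0.496, 0.351, 0.338, 0.637 and 0.433 CPM in palatal libraries against 1.29, 1.51, 0.998, 0.967 and 0.798 CPM in buccal libraries (-1.31 ± 0.24, edgeR adjusted p = 5.69e-04). Cd3g had 0.463, 0.223, 0.282, 0.279 and 0.325 CPM in palatal libraries against 1.51, 1.28, 1.19, 1.69 and 0.798 CPM in buccal libraries (-2.02 ± 0.26, edgeR adjusted p = 2.27e-05). Both are chains of the CD3 signalling complex, and for both the sides stayed apart. The third chain, Cd3d, had 8, 8, 6, 2 and 1 counts in palatal libraries against 17, 13, 13, 7 and 6 counts in buccal libraries and did not pass (-1.08 ± 0.42, edgeR adjusted p = 0.0588, unfiltered). Cd2, an adhesion receptor of T and NK cells, had 0.132, 0.191, 0.254, 0.0796 and 0.252 CPM in palatal libraries against 1.06, 1.28, 1.16, 1.21 and 0.905 CPM in buccal libraries (-2.56 ± 0.26, edgeR adjusted p = 2.09e-06). Lck, the kinase that starts T cell receptor signalling, fell by 1.52 ± 0.24. The palatal values of Cd2 were spread over 2 to 9 counts.

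Co-stimulatory and cytokine receptor genes fell by different amounts. Ctla4, an inhibitory receptor gene of regulatory and activated T cells, had 0.165, 0.383, 0.226, 0.318 and 0.613 CPM in palatal libraries against 2.09, 2.13, 1.84, 1.93 and 1.76 CPM in buccal libraries (-2.52 ± 0.26, edgeR adjusted p = 2.16e-06). The buccal values of Ctla4 lay close together and the palatal ones did not. The palatal values are 5 to 17 counts per library, against 56 to 66 in buccal libraries, so counting error weighs more on them. Icos, a T cell co-stimulator, fell by 1.30 ± 0.36. Il7r, the receptor chain for the survival cytokine interleukin 7, had 1.09, 0.989, 0.902, 0.796 and 0.974 CPM in palatal libraries against 2.48, 2.99, 2.45, 2.42 and 3.14 CPM in buccal libraries (-1.50 ± 0.15, edgeR adjusted p = 1.76e-06). Il2rb, a chain shared by the receptors for interleukins 2 and 15, had 0.331, 0.765, 0.592, 0.279 and 0.505 CPM in palatal libraries against 2.03, 2.69, 1.90, 2.87 and 1.89 CPM in buccal libraries (-2.17 ± 0.24, edgeR adjusted p = 6.21e-06). Il2rg, the common gamma chain, fell by 2.02 ± 0.33.

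Thy1 went the other way, and the B cell genes did not pass. Thy1 encodes CD90, which marks mouse T cells and is also made by fibroblasts and neurons. It had 27.9, 18.8, 21.3, 19.1 and 21.3 CPM in palatal libraries against 16.2, 18, 18, 14.7 and 13.9 CPM in buccal libraries. Every palatal value lay above every buccal one by a narrow margin, and the fold change was 0.43 ± 0.11 (edgeR adjusted p = 0.00737). Of 19 other fibroblast and matrix markers, 7 were higher and 2 lower in the unfiltered fit, where 9.66% of genes were higher and 9.77% lower. Dcn, the matrix proteoglycan decorin, and the collagen gene Col5a2 rose by 3.47 ± 0.17 and 1.52 ± 0.09, while Vim, the intermediate filament gene of mesenchymal cells and leukocytes, fell by 1.95 ± 0.15. The summed level of that list, Thy1 included, was 248.8 to 272.3 CPM in palatal and 159.2 to 177.2 CPM in buccal libraries, and its part in the Thy1 result was not tested. The fibroblast receptor genes Pdgfra and Pdgfrb averaged 0.175 and 0.0574 CPM in palatal libraries, against 0.225 and 0.0440 CPM in buccal libraries, and no gene of that list was at 0 in every library. Cd79a and Cd79b encode the signalling chains of the B cell receptor. Cd79a had 6, 4, 3, 6 and 4 counts in palatal libraries against 2, 4, 2, 12 and 5 counts in buccal libraries, and Cd79b had 0, 4, 2, 0 and 1 counts in palatal libraries against 1, 3, 0, 8 and 2 counts in buccal libraries. Neither passed (edgeR adjusted p = 0.977 and 0.436, unfiltered), and the sides overlapped for both. A difference was not detectable at this depth.

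**Figure D2:**
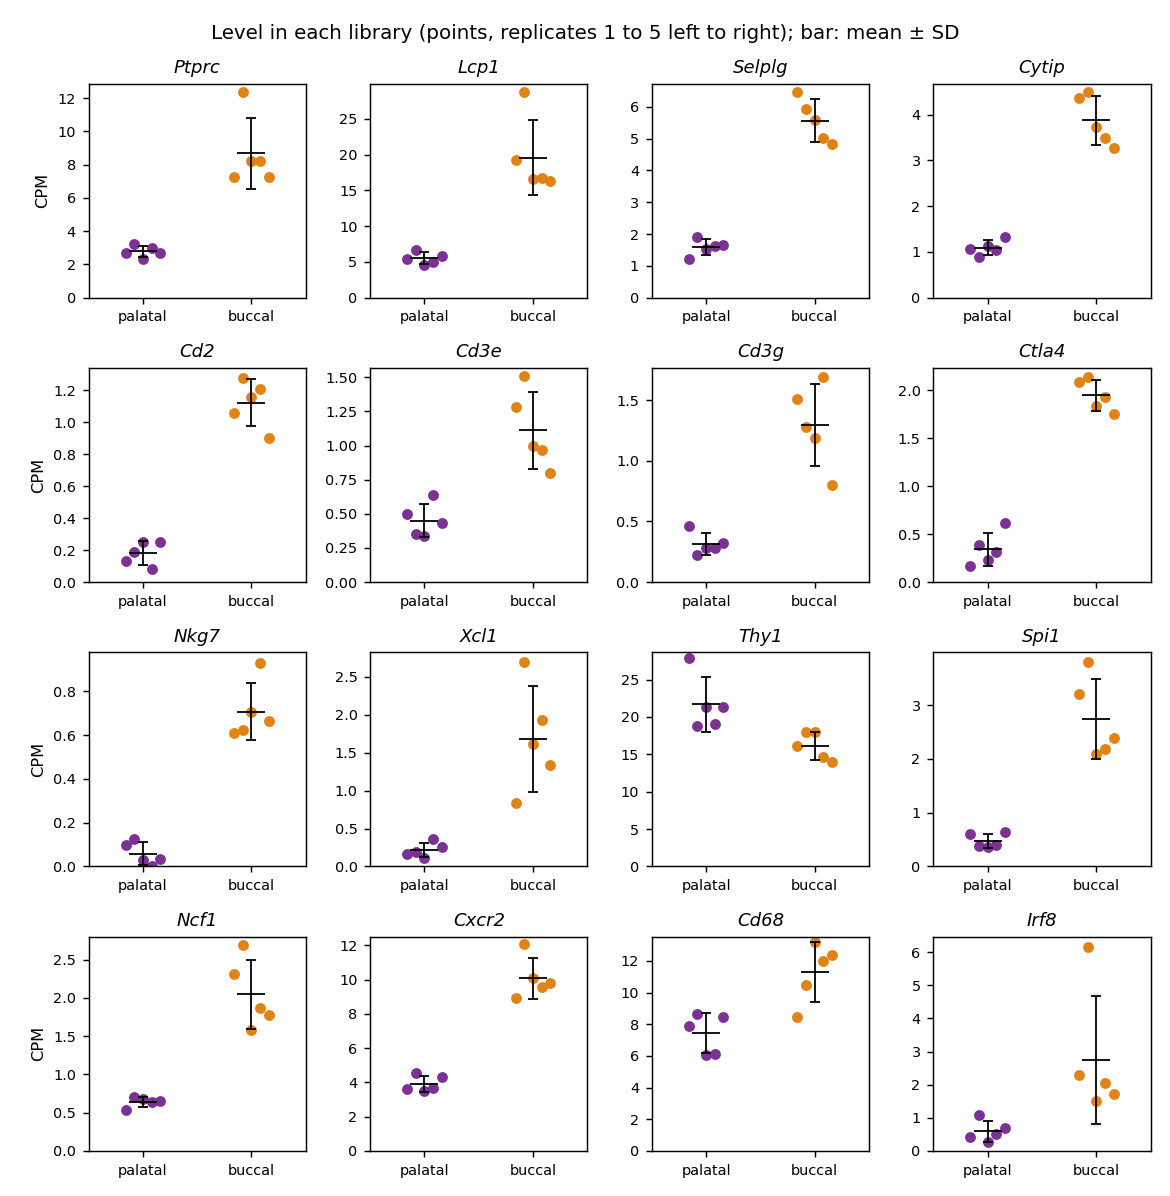
CPM (y axis, from 0) of 16 leukocyte genes in each of the 5 palatal (left) and 5 buccal (right) libraries; points run from replicate 1 to 5, and the black bar is the mean ± SD. The sides are apart in 15 panels and touch for Cd68, and Thy1 is the panel with palatal above buccal. Buccal library 2 stands out for Ptprc, Lcp1 and Irf8.

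All 9 myeloid genes were lower in palatal libraries. Spi1 encodes PU.1, the transcription factor that commits cells to the myeloid lineage and that B cells also use. It had 0.596, 0.383, 0.366, 0.398 and 0.649 CPM in palatal libraries against 3.22, 3.81, 2.09, 2.18 and 2.39 CPM in buccal libraries (-2.51 ± 0.23, edgeR adjusted p = 9.52e-07). Irf8, a factor of dendritic cell and monocyte development, had 0.430, 1.08, 0.254, 0.517 and 0.685 CPM in palatal libraries against 2.28, 6.17, 1.51, 2.04 and 1.73 CPM in buccal libraries (-2.20 ± 0.47, edgeR adjusted p = 0.00256). Buccal library 2 held by far the highest Irf8 value. Ncf1, the p47 subunit of phagocyte oxidase, had 0.530, 0.702, 0.677, 0.637 and 0.649 CPM in palatal libraries against 2.31, 2.69, 1.58, 1.86 and 1.78 CPM in buccal libraries (-1.67 ± 0.19, edgeR adjusted p = 6.21e-06).

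The receptor adaptors Tyrobp (DAP12) and Fcer1g (the Fc receptor gamma chain), which myeloid and NK cells share, fell by 1.58 ± 0.19 and 1.64 ± 0.32. Tyrobp had 0.517 to 0.733 CPM in palatal and 1.51 to 2.49 CPM in buccal libraries, and Fcer1g had 0.364 to 0.702 CPM in palatal and 0.984 to 3.02 CPM in buccal libraries. Fcgr3, an Fc receptor for immunoglobulin G, averaged 0.412 ± 0.0876 CPM in palatal and 0.838 ± 0.415 CPM in buccal libraries (SD, n = 5 each; -1.02 ± 0.31, edgeR adjusted p = 0.0159). With any 1 library left out its fold change was -0.67 to -1.13, with an edgeR adjusted p of 0.0133 to 0.0459. Without buccal library 2 it was the -0.67. Adgre1, the gene of the macrophage antigen F4/80, fell by 1.25 ± 0.30.

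Cxcr2 and Cd68 had the highest levels of the myeloid members. Cxcr2, a chemokine receptor best known from neutrophils, had 3.61, 4.56, 3.52, 3.66 and 4.29 CPM in palatal libraries against 8.91, 12.1, 10.1, 9.56 and 9.79 CPM in buccal libraries (-1.36 ± 0.11, edgeR adjusted p = 2.03e-07). Genes that define neutrophils were near or at 0 beside it. Csf3r averaged 0.119 CPM in palatal and 0.0988 CPM in buccal libraries, Ly6g 0 CPM in palatal and 0.0122 CPM in buccal libraries, and Mpo 0.0459 CPM in palatal and 0.0495 CPM in buccal libraries, while Cxcr1 and Ctsg had no counts in any library. Of the 18 other listed neutrophil markers with counts, 1 passed in the unfiltered fit, where 19.4% of genes were called either way. It was Ltf, which glands also make and which was higher in palatal libraries. S100a8 and S100a9, which keratinocytes also make, did not pass (-0.98 ± 0.38 and -0.36 ± 0.42). The list's summed level, Cxcr2 included, was 78.0 to 195 CPM in palatal and 54.5 to 99.99 CPM in buccal libraries. Within it Ltf averaged 114 CPM in palatal and 12.0 CPM in buccal libraries. S100a8 averaged 16.3 CPM in palatal and 32.0 CPM in buccal libraries, and S100a9 15.8 and 20.1 CPM. The sum is thus mostly that of Ltf, S100a8 and S100a9. Cd68, a lysosomal protein gene of macrophages that other cells also make, had 7.88, 8.64, 6.06, 6.13 and 8.44 CPM in palatal libraries against 8.46, 10.5, 13.2, 12.0 and 12.4 CPM in buccal libraries (-0.61 ± 0.14, edgeR adjusted p = 0.00241). Its sides overlapped, because palatal library 2 lay above buccal library 1.

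Per length, Arhgdib, Cd68 and Thy1 led the 47 levels in buccal libraries. CPM was divided by kilobases of annotated exon (GENCODE M21, GRCm38), a length from another build than the counts. Arhgdib had 11.9 CPM per kilobase in palatal and 19.6 in buccal libraries, Cd68 had 5.91 in palatal and 8.99 in buccal libraries, and Thy1 had 7.24 in palatal and 5.39 in buccal libraries. Cxcr2 followed with 1.29 in palatal and 3.31 in buccal libraries, and Ptprc had 0.152 in palatal and 0.474 in buccal libraries. Cd79b, the lowest in buccal libraries, had 0.0308 in palatal and 0.0643 in buccal libraries.

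Whether a gene differed between the sides by more or by less than Ptprc does was tested with each library's Ptprc count in place of its size. Relative to Ptprc, 5 of the 40 other members tested were lower in palatal libraries, 5 were higher and 30 did not pass, where 0.725% of the 14061 genes tested were lower, 94.3% were higher and 95% were called either way. The 5 lower ones were Nkg7 (-1.93 ± 0.50, edgeR adjusted p = 1.38e-04), Xcl1 (-1.33 ± 0.35), Cd2 (-0.96 ± 0.37), Ctla4 (-0.93 ± 0.32) and Spi1 (-0.88 ± 0.29). Of these 4 are lymphoid and Spi1 is myeloid. The 4 lymphoid ones met the count minimum in 0 to 2 palatal libraries and in all 5 buccal ones. They thus passed the filter through the buccal side, and this fit held only 13 of the 19 lymphoid members. Whether lymphoid genes as a class fell more than Ptprc cannot be read from it. The 5 higher ones were Thy1 (2.05 ± 0.20), Vav1 (1.20 ± 0.27), Cd68 (0.99 ± 0.21), Arhgdib (0.92 ± 0.19) and Itgb2 (0.51 ± 0.24, edgeR adjusted p = 0.0314). Thy1 lay above the median of all genes tested, which was 1.61. The T cell genes Cd3e (0.32 ± 0.32), Il7r (0.11 ± 0.26) and Lck (0.11 ± 0.32) did not pass. The palatal libraries hold 74 to 102 Ptprc counts each, and that counting error enters every value. Cd2 missed the threshold without palatal library 4 (-0.77, edgeR adjusted p = 0.057), and Itgb2 missed it without buccal library 3, 4 or 5 or palatal library 5 (0.37 to 0.51, edgeR adjusted p = 0.0557 to 0.165). Set against the summed counts of the 19 pan-leukocyte genes, 18 members were lower and 4 higher, where 1.66% of genes were lower and 92.6% higher; with Arhgdib left out of that sum, a choice made after seeing the data, 5 were lower and 6 higher.

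**Figure D3:**
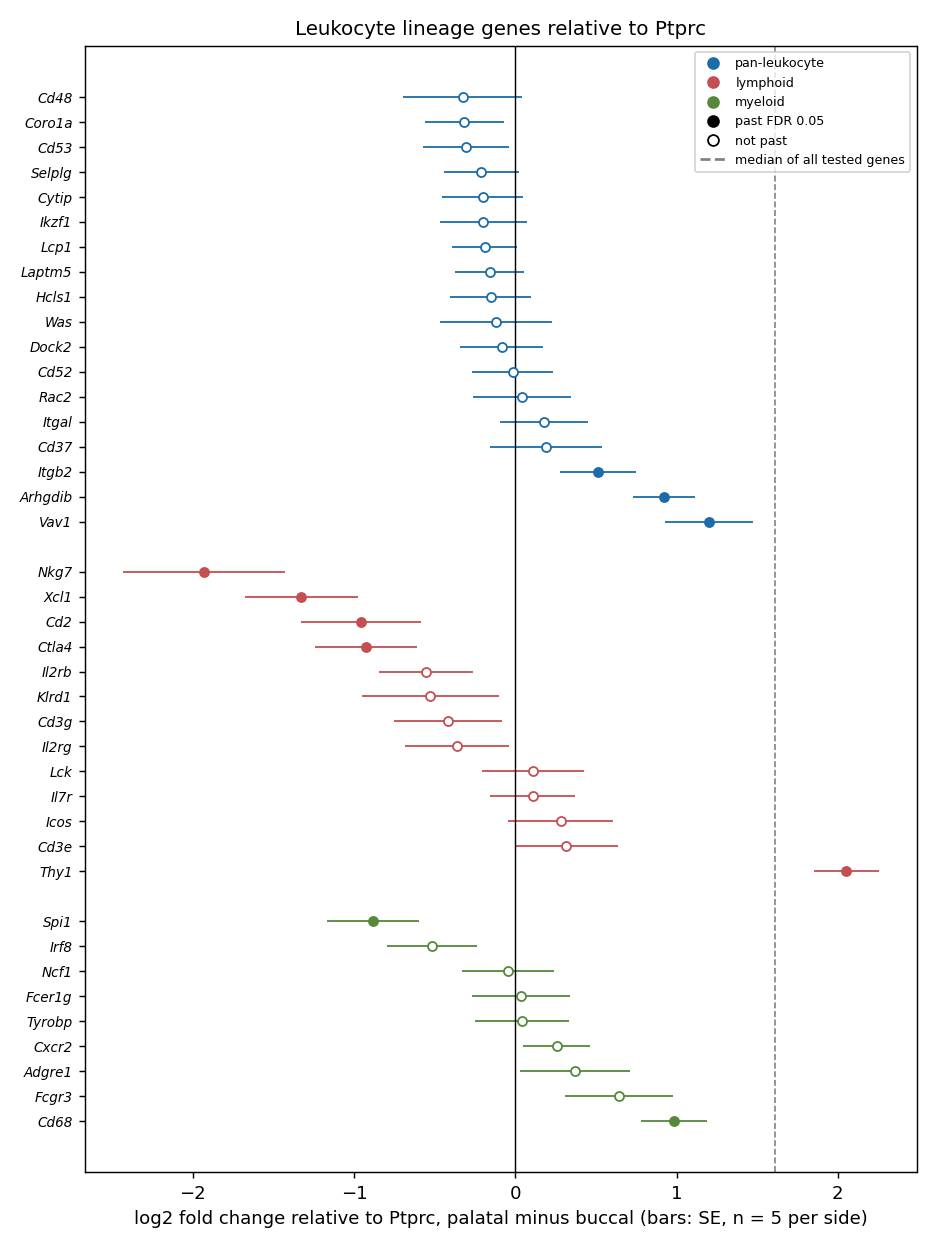
Log2 fold change relative to Ptprc, palatal minus buccal, of the 40 other leukocyte genes tested (x axis; bars, SE; n = 5 per side). Filled symbols passed a false discovery rate of 0.05, and the dashed line is the median of all genes tested, 1.61. Most members lie near 0, Nkg7 lies farthest left and Thy1 right of the dashed line.

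Other leukocyte genes, listed by lineage apart from the 47, were counted in the unfiltered fit. There 9.77% of all genes with any count were lower and 9.66% were higher. Of 46 other T cell genes, 30 were lower and 1 higher. Itgae, the integrin chain with which intraepithelial lymphocytes hold E-cadherin, averaged 1.09 ± 0.0641 CPM in palatal and 4.27 ± 0.584 CPM in buccal libraries (SD, n = 5 each; -1.97 ± 0.14, edgeR adjusted p = 3.84e-08). The T cell kinase gene Zap70 fell by 2.03 ± 0.28. Of 26 other cytotoxic and NK cell genes with counts, 13 were lower and 1 higher, with Ctsw, a granule protease gene, and Klrk1, the NKG2D receptor gene, down by 2.54 ± 0.25 and 2.50 ± 0.25. Outside the rule for naming genes, Ncr1, an NK cell receptor gene, had 22 counts over the buccal libraries and 0 over the palatal ones, and was picked after its values were seen. Of 42 other pan-leukocyte genes with counts, 35 were lower and 2 higher, with Plcg2, Csf2rb and Lsp1 down by 1.06 ± 0.07, 1.78 ± 0.18 and 1.47 ± 0.16. Of 40 other monocyte, macrophage and dendritic cell genes, 17 were lower and 2 higher; Itgam, an integrin chain gene of myeloid cells, rose by 2.70 ± 0.18, and Itgax and Csf1r fell by 1.86 ± 0.19 and 1.31 ± 0.14. Of 18 other B and plasma cell genes, 3 were lower and 2 higher. The low-affinity IgE receptor gene Fcer2a fell by 2.25 ± 0.20, Blnk, a B cell adaptor gene averaging 112 CPM in palatal and 82.1 CPM in buccal libraries, rose by 0.45 ± 0.06, and Tnfrsf13c rose by 0.89 ± 0.27.

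The summed levels of these lists did not follow their counts of lower genes. The monocyte, macrophage and dendritic cell sum was 357.9 to 383.6 CPM in palatal and 212.9 to 352.3 CPM in buccal libraries, and the B and plasma cell sum was 109.2 to 126.3 CPM in palatal and 83.3 to 94.6 CPM in buccal libraries, so both were higher in all palatal libraries. The cytotoxic and NK cell sum averaged 31.2 CPM in palatal and 22.6 CPM in buccal libraries, and its groups overlapped narrowly, at 28.96 CPM for the lowest palatal and 29.08 CPM for the highest buccal library. The other pan-leukocyte sum averaged 946.9 CPM in palatal and 862.2 CPM in buccal libraries, and the other T cell sum 129 CPM in palatal and 147 CPM in buccal libraries, and both overlapped. A single gene held most of the palatal B cell, cytotoxic, pan-leukocyte and T cell sums; these genes were picked out after their values were seen. They were Blnk, Il12rb2 (27.7 CPM in palatal and 9.58 CPM in buccal libraries), the hyaluronan receptor gene Cd44 (704 CPM in palatal and 543 CPM in buccal libraries) and the transcription factor gene Bcl11b (89.4 CPM in palatal and 83.6 CPM in buccal libraries). Epithelial cells are also known to make Cd44 and Bcl11b.

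Markers of other cells, counted in the same unfiltered fit, moved less evenly. Beside these counts, 9.77% of all genes of that fit were lower and 9.66% were higher. Among genes that passed the count filter, 20.3% were lower and 18.7% higher in the filtered fit. All 12 Langerhans cell and antigen presentation genes were lower, and their summed level was 118 to 159 CPM in palatal and 316 to 512 CPM in buccal libraries. Cd207, which encodes langerin, fell by 2.11 ± 0.15. Of 13 red blood cell and platelet genes 1, Itga2b, was lower (-0.66 ± 0.10), and the sum was 19.7 to 34.5 CPM in palatal and 29.8 to 42.2 CPM in buccal libraries, so those groups overlapped. Of 16 endothelial genes 3 were lower and 2 higher, with sums of 5.69 to 11.03 CPM in palatal and 6.72 to 10.6 CPM in buccal libraries. Prox1 rose by 1.77 ± 0.31 and Vwf fell by 0.96 ± 0.20. Of 8 mast cell and basophil genes with counts 2 passed, both higher, among them Kit (1.03 ± 0.13), which other cells also make; Tpsab1, Ms4a2, Mcpt8 and Mrgprb2 had no counts. Of 13 melanocyte and Merkel cell genes with counts 5 passed, all of them higher, with Krt8 up by 3.12 ± 0.27. The summed level of that list overlapped, at 96.3 to 107 CPM in palatal and 89.3 to 114 CPM in buccal libraries. Of 20 keratinocyte genes 7 were higher and 5 lower, with Krt76 up by 4.24 ± 0.11 and Krt4 down by 2.07 ± 0.12. Of 20 immediate early and dissociation genes, 2 were higher and 1 lower. The part of these cell types in the leukocyte result was not tested.

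**Figure D4:**
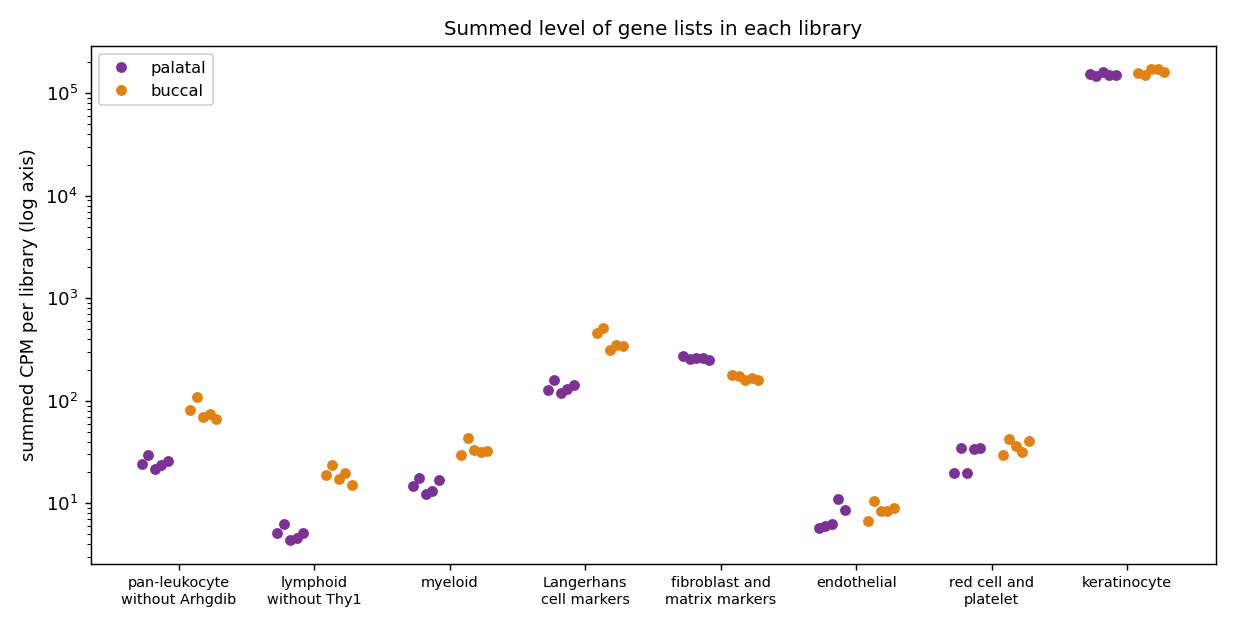
Summed CPM (log axis) of 8 gene lists in each palatal (left, purple) and buccal (right, orange) library. The sums of the pan-leukocyte genes without Arhgdib, the lymphoid genes without Thy1, the myeloid genes and the Langerhans cell markers lie lower in all palatal than in all buccal libraries; with Thy1 the lymphoid sums overlap (23.6 to 33.1 CPM in palatal, 29.2 to 41.5 CPM in buccal libraries). The endothelial, red cell and keratinocyte sums overlap, and the fibroblast sum lies higher in palatal libraries.

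Libraries numbered 2 most often held the highest level of their side. Palatal library 2 was the highest of its side for 23 of the 47 members and buccal library 2 for 31. With number 2 left out on both sides, 39 members were still lower and 1 higher in the filtered fit. The median coefficient of variation among palatal libraries was 22.2% for pan-leukocyte, 41.8% for lymphoid and 21.3% for myeloid members. Among buccal libraries it was 24.5%, 27.4% and 27.2% for the pan-leukocyte, lymphoid and myeloid members. Of the 19 lymphoid members, 4 met the count minimum in every palatal library.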

How the data were processed

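The deposited table holds, per the file headers, raw counts per gene made by the authors for 10 libraries, and a signal, the authors' DESeq2-normalized value, which was checked to equal the count divided by 1 factor per library and was not used further. Per the submitters' processing notes the tools included HTSeq 2.01, TopHat2 2.1.1, cutadapt 2.10 and DESeq2 1.36.0, with the build GRCm39; their roles and the strand setting of the counting are not stated, and the libraries came from a stranded single-end kit, per the labels' protocols. Of 55414 genes, 6250 blank in every library, immunoglobulin constant genes among them, were left out; 0 columns belong to other samples.

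Genes were kept by filterByExpr (minimum count 10), scaled by TMM and compared, palatal minus buccal, by edgeR 4.0.16's two-sided quasi-likelihood F-test with robust dispersion and Benjamini-Hochberg adjustment over all genes at 0.05 (R 4.3.3, limma 3.58.1, DESeq2 1.42.0). The SE is the fold change over the square root of F. Fits relative to Ptprc used the log of its count as offset. The fits were run on counts simulated under the model they assume, which cannot check that model. For the main fit, changes were planted only in genes averaging at least 1 CPM, a level that many members do not reach. Libraries of 1 side differed by more than sampling noise in all 20 pairs (chi-square over degrees of freedom, 8.29 to 64.0). Members, classes and lists were chosen with earlier results of these data known. Named by rule were the 6 members per class and 3 genes per other list with the smallest p, members that did not pass and members that rose; members outside it are given to account for all 47. Some genes of the lists are not reported here. Reads carry no molecular identifiers, so they may share a molecule of origin. Alternatives were other scalings, filters and tests, a block, and leaving out libraries.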

Additional observations from a re-analysis of the deposited data

Results flagged for a closer look

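Among 94 sets of 5 libraries (47 members on 2 sides), 14 had a library far from the other 4 of its side. For independent, normally distributed values chance gives about 1 in 20. The sets share the same 10 libraries and some hold very low counts, so the 14 cannot be set against that rate. Buccal library 2 was such a high value for Ptprc (12.4 CPM, the other 4 at 7.23 to 8.25), Lcp1 (28.7, others 16.4 to 19.2), Dock2 (4.82, others 2.76 to 3.22), Tyrobp (2.49, others 1.51 to 1.76), Irf8 (6.17, others 1.51 to 2.28), Fcgr3 (1.58, others 0.612 to 0.740) and Gzma (0.361, others 0.0690 to 0.133). Palatal library 2 was one for Cd52 (1.82, others 0.930 to 1.15), Vav1 (1.72, others 0.938 to 1.16) and Gzma (0.319, others 0 to 0.0564). The rest were Itgb2 in palatal library 5 (2.56, others 1.64 to 1.79), Thy1 in palatal library 1 (27.9, others 18.8 to 21.3), Cd79a in buccal library 4 (0.414, others 0.0643 to 0.133) and Adgre1, low in palatal library 3 (0.169, others 0.397 to 0.469).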

How the results depend on the processing

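Every member tested kept its direction and its side of the threshold in all refits against library size, 764 comparisons of 1 member in 1 refit. The refits were other scalings, filters, DESeq2, limma-voom, the replicate block, each library left out and number 2 left out. The count of members lower in palatal was 39 to 40 with 1 library left out and 24 under a minimum of 1 CPM in 5 libraries, 3 of them lymphoid, because fewer members were tested. With the 4 shared genes (Spi1, Ncf1, Tyrobp, Fcer1g) counted as pan-leukocyte, 22 pan-leukocyte and 5 myeloid members were lower. The replicate number as a block gave 39 lower members and 5518 genes called, against 5474 without it; same-numbered libraries correlated at -0.0226 to 0.328, and 2 of the 5 palatal libraries correlated best with their own number, so pairing by number was not established. The block gave 6 lower and 6 higher members relative to Ptprc.

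Relative to Ptprc, members near 0 changed sign, none past the threshold. Against the pan-leukocyte sum, which gave 18 lower members, these were Cd37 (-0.10), Rac2 (-0.26), Itgal (-0.13), Il7r (-0.20), Lck (-0.20), Tyrobp (-0.26), Fcer1g (-0.28) and Cxcr2 (-0.052); against that sum without Arhgdib, Cd52 (0.041) and Ncf1 (0.014). Arhgdib holds a large part of that sum and fell less. With 1 library left out the ranges were -0.14 to 0.071 for Cd52, -0.093 to 0.17 for Rac2, -0.22 to 0.017 for Was, -0.0036 to 0.20 for Lck, -0.14 to 0.073 for Ncf1, -0.012 to 0.11 for Tyrobp and -0.050 to 0.19 for Fcer1g, and 4 to 7 members were lower. Depth limits the lymphoid genes most.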

Other observations

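A few genes on the leukocyte lists were higher in palatal libraries, against the run of their lists; they were named by the rule on smallest p. Itgam, the alpha chain that pairs with Itgb2 in the myeloid integrin Mac-1, averaged 10.6 ± 1.53 CPM in palatal and 1.63 ± 0.541 CPM in buccal libraries (SD, n = 5 each; log2 fold change 2.70 ± 0.18 SE, edgeR adjusted p = 3.11e-08). Its partner Itgb2 averaged 1.90 CPM in palatal and 4.22 CPM in buccal libraries, so the chains moved in opposite directions, with no overlap of the sides for either. Il12rb2, an interleukin 12 receptor chain gene, averaged 27.7 ± 2.34 CPM in palatal and 9.58 ± 1.80 CPM in buccal libraries (1.53 ± 0.11, edgeR adjusted p = 8.53e-08).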
